A study of Rattus norvegicus with 2 samples.

Results

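The genes described here are 9 genes of nitric oxide, arginine and biopterin metabolism, taken by symbol from the 25399 genes of the gene list. They are the nitric oxide synthases *Nos2* and *Nos3*, the biopterin enzyme *Gch1*, the arginine-making enzymes *Ass1* and *Asl*, the arginases *Arg1* and *Arg2* and the arginine carriers *Slc7a1* and *Slc7a2*. Hearts of neonatal Sprague-Dawley rats (1 to 3 days old, males and females pooled) were digested with trypsin, and a Percoll gradient was used to enrich intrinsic cardiac adrenergic (ICA) cells, a non-neuronal source of catecholamines in the heart. The cells received either saline (control) or 1 µg/mL lipopolysaccharide (LPS), a bacterial cell wall component, for 2 h. Each condition gave 1 library of the 10X Genomics 3′ kind, with no genetic change in either group.

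Transcripts were counted by unique molecular identifiers (UMIs). The raw counts were summed over the cells of a cluster and are given per 1000000 UMIs of that cluster and library (CPM). Intervals are exact 95% intervals that cover counting error only. With 1 library per condition no test was made, and any difference in the handling of the libraries cannot be told apart from the treatment. The control library had 11529 cells with a cluster and a median of 12479 UMIs per cell over its 11531 cells, and the LPS library had 12681 such cells and a median of 9432 over 12689 cells. The libraries share 194 barcodes. The authors' clusters 0, 1 and 7 (Fibroblast) hold 69.4% of the cells in control and 67.9% with LPS, although the samples are labelled as ICA cells, clusters 4 and 5 are Endothelial, cluster 6 is Macrophages and cluster 3 is ICA and Cardiomyocyte. Clusters 2, 8 and 9 carry no name, and cluster 10 (16 control and 26 LPS cells) was left out of the counts. The fibroblast markers followed these names in part only. The 6 of them summed to 6999 to 8805 CPM in clusters 0, 1 and 7 and to 1665 to 3627 CPM in clusters 2 to 6 and 8. Their sum was highest in cluster 9, which has no name, at 11707.5 CPM in control and 10205.8 CPM in LPS cells. The macrophage, endothelial and cardiomyocyte lists followed the names more closely, though cardiomyocyte markers were also raised in cluster 9. The summed level of 10 macrophage markers was 2112 CPM in control and 2833 CPM in LPS cells of cluster 6. It was between 10.95 and 54.8 CPM in clusters 0 to 5 and 7 to 9. The summed level of 6 endothelial markers was 851 to 1203 CPM in clusters 4 and 5 and 33.3 to 148 CPM in clusters 0 to 3 and 6 to 9. In cluster 3 the cardiomyocyte markers summed to 6636 and 7069 CPM. They summed to 1182 and 1295 CPM in cluster 9, whose leading genes include *Myh6*, and to 122 to 239 CPM in clusters 0 to 2 and 4 to 8. The 4 ICA markers *Th*, *Dbh*, *Ddc* and *Slc18a2* are genes of catecholamine synthesis and storage. They summed to 75.0 and 81.9 CPM in cluster 3, against 0 to 8.89 CPM in the other 9 clusters. Of these 4 markers, *Th* was at 0 in cluster 3 in both libraries, and *Slc18a2* was at 0 there in control.

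Nitric oxide synthases turn arginine into nitric oxide and citrulline. The endothelial enzyme, made from *Nos3*, is present in resting vessels and relaxes them, and the inducible enzyme, made from *Nos2*, is switched on in macrophages and other cells by bacterial products and is known for its part in the low blood pressure of sepsis. Both need tetrahydrobiopterin as a cofactor, whose synthesis from GTP begins with GTP cyclohydrolase (*Gch1*). Citrulline is turned back into arginine by argininosuccinate synthase (*Ass1*) and argininosuccinate lyase (*Asl*), arginases compete for the same arginine, and the cationic carriers CAT-1 (*Slc7a1*) and CAT-2 (*Slc7a2*) bring arginine into the cell.

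A RefSeq promoter window (build GRCr8, the 250 bases before the annotated start) was available for 5 of the 9 genes and for 4 (*Nos2*, *Arg1*, *Arg2* and *Slc7a2*) not. Those of *Gch1*, *Slc7a1* and *Nos3* are shown, a choice made after their values were seen, because these genes contrast: *Gch1* and *Slc7a1* were higher with LPS in every cluster measured, and *Nos3* in none. Each runs 5′ to 3′ on the strand of its gene, with capitals for matches on either strand to the NF-kappaB consensus, the CCAAT box, the GC box (GGGCGG), the box called TATA (searched as TATAAA) and the core of a cyclic AMP response element (TGACG, CRE core).
Gch1 (chr15:22917413-22917662, minus strand): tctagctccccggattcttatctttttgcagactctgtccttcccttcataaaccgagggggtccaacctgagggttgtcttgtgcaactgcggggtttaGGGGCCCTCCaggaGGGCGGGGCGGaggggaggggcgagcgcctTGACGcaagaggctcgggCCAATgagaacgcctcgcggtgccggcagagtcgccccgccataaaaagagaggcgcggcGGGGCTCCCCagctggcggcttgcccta
Slc7a1 (chr12:11664238-11664487, plus strand): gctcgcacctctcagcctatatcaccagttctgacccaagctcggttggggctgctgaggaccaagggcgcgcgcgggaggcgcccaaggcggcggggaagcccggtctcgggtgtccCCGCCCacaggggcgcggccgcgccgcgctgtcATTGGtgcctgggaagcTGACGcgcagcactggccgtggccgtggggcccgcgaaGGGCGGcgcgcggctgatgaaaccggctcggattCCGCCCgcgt
Nos3 (chr4:11706582-11706831, minus strand): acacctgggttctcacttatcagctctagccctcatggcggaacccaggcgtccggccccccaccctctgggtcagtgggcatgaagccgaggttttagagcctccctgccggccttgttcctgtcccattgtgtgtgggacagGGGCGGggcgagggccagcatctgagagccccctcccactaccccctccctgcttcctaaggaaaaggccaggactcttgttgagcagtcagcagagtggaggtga
The NF-kappaB consensus was found at 150 to 141 and at 28 to 19 bases before the start of *Gch1*, and not in the *Nos3*, *Slc7a1*, *Ass1* or *Asl* windows. Of 33469 rat promoter windows, 4.24% hold it. The *Gch1* window also holds a CCAAT box (88 to 84 bases before the start), GC boxes at 136 to 131 and 131 to 126, which overlap by 1 base, and a CRE core at 106 to 102. *Slc7a1* had a CCAAT box (99 to 95), a CRE core (82 to 78) and 3 GC boxes, and *Nos3* had a GC box at 106 to 101 and no other match. The CCAAT box is in 34.0% of all windows, the GC box in 30.5%, the TATA box in 12.9% and the CRE core in 18.2%. Such matches describe letters and not bound sites.

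Over the 9 genes and 10 clusters there are 90 pairs of gene and cluster, of which 62 had at least 20 UMIs over both libraries and 28 did not. In 29 of the 62 the LPS level was at least 2-fold above the control level, in none was it at least 2-fold below, and 33 lay between. Over all genes that met the same minimum, 3.72% of pairs were at least 2-fold higher and 7.84% at least 2-fold lower with LPS. A pair that reaches 20 UMIs through the LPS library alone has to be higher there, so the count describes the genes and is no evidence of its own. Of the 44 pairs with at least 20 UMIs in the control library alone, 13 were at least 2-fold higher, against 2.48% of the pairs over all genes with the same control minimum. The interval of the ratio excluded 1 in 28 of the 29, the exception being *Slc7a2* in cluster 4. The 29 were picked for their ratio, so this describes them and is no evidence of its own. Cluster 6 had the most genes at least 2-fold higher, 6 of 8 measured, against 4.73% of all genes there, followed by 4 of 9 in cluster 0 (3.64% of all genes) and 4 of 8 in cluster 1 (3.39%). It was 3 of 8 in cluster 4 (3.03%), 3 of 6 in clusters 3 (2.27%) and 5 (4.86%), and 2 of 6 in cluster 2 (3.06%). In clusters 7, 8 and 9 it was 2 of 4 (5.17%), 2 of 5 (3.58%) and 0 of 2 (5.20%). The median log2 ratio over all genes lay between -0.15 and -0.02 in the clusters other than 6 and was -0.35 in cluster 6. Relative to that median, 30 pairs were at least 2-fold higher.

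**Figure D1:**
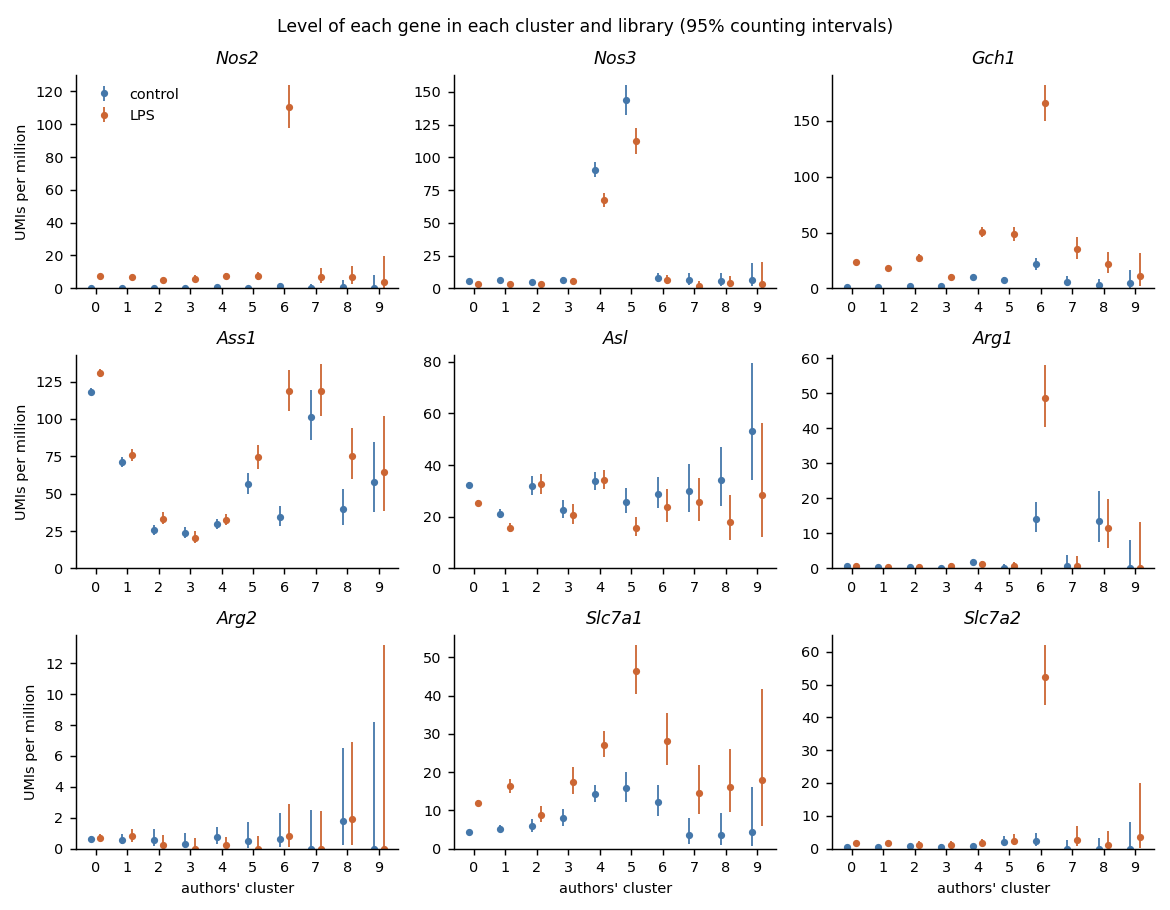
Level of each of the 9 genes (y axis, CPM, each panel with its own linear axis from 0) in the authors' clusters 0 to 9 (x axis), in the control (blue) and LPS (orange) library. Points are summed levels and bars are exact 95% counting intervals. Nos2 and Slc7a2 stand out in cluster 6 of the LPS library, at 110 and 52.3 CPM, and Nos3 in clusters 4 and 5 of both libraries.

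*Nos2* (ENSRNOG00000057443) was nearly absent without LPS, with 40 UMIs in the whole control library, and had 1137 UMIs with LPS, a ratio of 34.0 (24.8 to 47.9). Macrophages of cluster 6 had the highest level. There it went from 4 UMIs (1.28 CPM) in control to 274 UMIs with LPS (110 CPM, 97.6 to 124), which is a ratio of 85.8 (33.1 to 317). In the LPS library this was 15.2 times (10.6 to 22.5) the level of the next cluster. In the fibroblasts of cluster 0, *Nos2* went from 13 to 531 UMIs (0.144 to 7.20 CPM), a ratio of 50.1 (29.1 to 94.8). The cycling fibroblasts of cluster 1, which lead with *Top2a* and *Cenpf*, went from 9 to 139 UMIs, a ratio of 18.4 (9.43 to 41.1). Among measured clusters with *Nos2* UMIs in both libraries the lowest ratio was that of the endothelial cluster 4, 8.89 (4.42 to 20.2), from 9 to 70 UMIs. Cluster 5, the other endothelial cluster, had 0 control and 33 LPS UMIs, a ratio whose exact interval starts at 7.90. Read against a limit of 3 control UMIs, with no allowance for the counting error of the LPS UMIs, the ratio is 10.3. Cluster 2 had 1 and 40 UMIs (44.6, 7.56 to 1805) and cluster 3 had 2 and 31 (20.02, 5.09 to 173). In clusters 7, 8 and 9 *Nos2* stayed under the minimum, with 10, 7 and 1 UMIs in LPS cells. All 7 measured clusters were at least 2-fold higher. None of them had 20 control UMIs, so they met the minimum through their LPS UMIs. This count is therefore no evidence of its own. The LPS levels outside cluster 6 lay between 3.58 and 7.25 CPM. Neighbours in that order did not differ beyond their counting error, but the level of cluster 0 (7.20 CPM, 6.60 to 7.84) was above that of cluster 2 (4.76 CPM, 3.40 to 6.48), with intervals that do not overlap.

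Droplets also capture RNA that floats free of cells, so UMIs of a gene can appear in cells that do not express it. In the LPS library the *Nos2* level outside cluster 6 was 3.24% to 6.58% of the level in cluster 6. The summed level of the 10 macrophage markers was 0.387% to 1.35% of theirs. In clusters 3, 4 and 5, 1 of the 10 was at 0 in each (*Ptprc*, *Csf1r* and *C1qc*, in that order). These genes had 225, 115 and 359 UMIs in the whole LPS library. In clusters 0, 1 and 2 all markers were found, and in clusters 7, 8 and 9, 5, 4 and 6 of them were at 0. Single markers reached higher shares, with *Mrc1* at 16.5% (11.5 to 23.2) in cluster 5, above *Nos2* there, *Mrc1* at 2.17% in cluster 3 and *Msr1* at 7.47% (0.188 to 42.4) in cluster 9. *Ccl4*, *Il1b* and *Csf3* were picked from these same data, because their levels over clusters and libraries were the most like those of *Nos2*. They are therefore no independent comparison. The macrophage products *Ccl4* and *Il1b* were at 0.275% to 0.752% and 0.253% to 0.533%. *Csf3*, the gene of the granulocyte growth factor G-CSF, was at 0.880% to 2.29% and at 12.3% in cluster 5. In clusters 0 to 5 the lower end of the *Nos2* interval was 3.02% or more, above the interval of the macrophage marker sum. Removing the 533 control and 206 LPS cells outside cluster 6 that held 2 or more macrophage marker UMIs left 517 *Nos2* UMIs in LPS cells of cluster 0, at 7.17 CPM. This filter acts on whole cells with macrophage marker UMIs, so it cannot show how much of the remaining *Nos2* was free RNA. Whether cells outside the macrophages transcribe *Nos2* was not tested beyond these values.

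**Figure D2:**
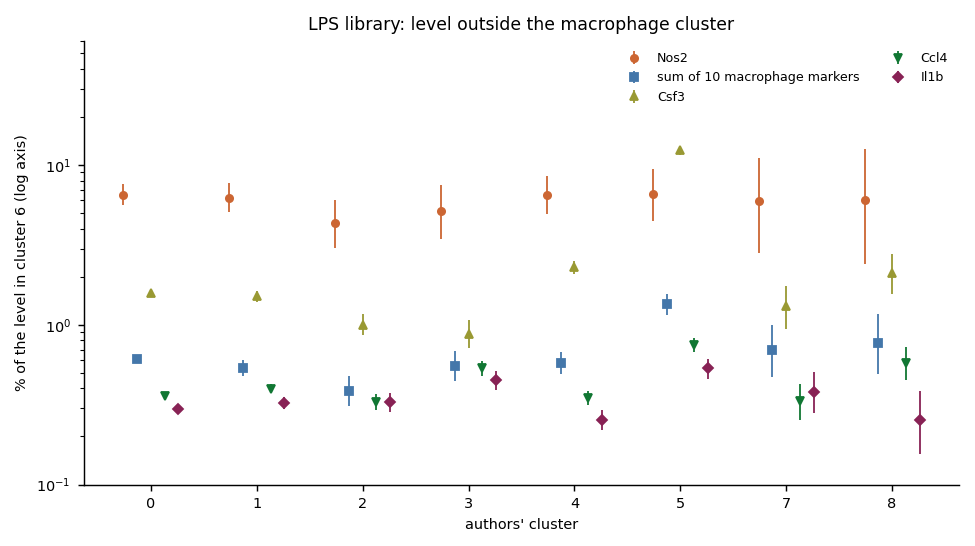
Level in each cluster of the LPS library other than macrophage cluster 6 and cluster 9, as a percentage of the level in cluster 6 (y axis, log scale), for Nos2, the sum of 10 macrophage markers, Csf3, Ccl4 and Il1b. Bars are exact 95% counting intervals. Nos2 sits at 4.32% to 6.58% in these clusters and the marker sum at 0.387% to 1.35%. Csf3, Ccl4 and Il1b were picked because their levels over clusters and libraries were the most like those of Nos2.

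Per cell, *Nos2* was sparse. Cells were thinned at random to 3000 UMIs each so that shares compare at equal depth, which left out 75 LPS cells. A *Nos2* UMI was then found in 0.712% (0.0863 to 2.55) of control macrophages and 26.2% (21.2 to 31.7) of LPS macrophages. In the fibroblasts of cluster 0 it was found in 0 of 6600 control cells and in 2.21% (1.88 to 2.58) of LPS cells. Unthinned, 1.42% and 51.2% of macrophages had one, with a median depth of 8846 UMIs per control cell and 6900 per LPS cell. In cluster 0 it was 0.197% and 7.06%, with medians of 12968 and 9821.5. Of the 291 LPS macrophages, 142 had no *Nos2* UMI, 77 had 1, 65 had 2 to 4 and 7 had 5 or more, with at most 7 in a cell. In cluster 0, by contrast, the 531 UMIs lay in 496 of 7030 cells. Because fibroblasts are so many, clusters 0, 1 and 7 held 59.8% of the *Nos2* UMIs of the LPS library and the macrophages 24.1%, from 2.29% of the cells.

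*Nos3* (ENSRNOG00000009348) marked the endothelium and was lower with LPS. Clusters 4 and 5 together held 67.5% of its UMIs in control and 74.2% in LPS cells. In cluster 5, which leads with the adhesion molecule gene *Selp* and with *Plvap*, the level was 144 CPM in control and 112 CPM with LPS (ratio 0.781, 0.693 to 0.880). In cluster 4 it was 90.4 and 67.3 CPM, a ratio of 0.744 (0.673 to 0.822). Cluster 5 was above cluster 4 in both libraries, by 1.59 times (1.43 to 1.76) in control and 1.67 times (1.48 to 1.87) in LPS cells. All other clusters lay between 1.97 and 7.71 CPM. There, too, the LPS value was the lower one, with ratios of 0.626 (0.536 to 0.729) in cluster 0 and 0.571 (0.423 to 0.767) in cluster 1, and intervals that included 1 in clusters 2, 3 and 6. Relative to the median of all genes the log2 ratio in cluster 6 was 0.00. The level in cluster 0 was 3.86% of that of cluster 5 in control and 3.10% in LPS cells, beside 3.65% and 2.82% of the cluster 4 level for the sum of 6 endothelial markers. None of the 7 measured clusters reached a 2-fold difference. *Nos1*, the neuronal synthase, had 7 control and 4 LPS UMIs in all.

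*Gch1* (ENSRNOG00000011039) was higher with LPS in every one of its 9 measured clusters, always by at least 2-fold, from 366 UMIs in the whole control library to 3603 with LPS, a ratio of 11.8 (10.6 to 13.2). Over all cells, 3.55% of genes were at least 2-fold higher. Clusters 2, 3, 7 and 8 had 18, 14, 8 and 3 control UMIs, so they met the minimum through their LPS UMIs. In macrophages it went from 67 to 412 UMIs (21.5 to 166 CPM), a ratio of 7.70 (5.94 to 10.1). The endothelial clusters came next with LPS. Cluster 4 went from 10.2 to 50.5 CPM (4.98, 4.05 to 6.16) and cluster 5 from 7.06 to 48.3 CPM (6.85, 4.66 to 10.4), and their LPS levels did not differ beyond counting error. The largest ratio was in the fibroblasts of cluster 0, from 85 to 1756 UMIs (0.939 to 23.8 CPM), at 25.3 (20.4 to 31.9), whose interval lies above those of the macrophages and of both endothelial clusters. The other fibroblast clusters gave 16.5 (11.1 to 25.6) in cluster 1 and 6.36 (3.01 to 15.5) in cluster 7, and cluster 2 gave 14.1 (8.70 to 24.2). Cluster 3, with the cardiomyocytes, had the lowest measured LPS level, 9.85 CPM from 54 UMIs, against 1.98 CPM from 14 UMIs in control (4.98, 2.73 to 9.71). In LPS cells of cluster 3 the fibroblast markers summed to 28.9% of their cluster 0 level. The part of free RNA in the *Gch1* levels of the clusters was not tested. Cluster 9 had 2 and 3 UMIs.

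Unlike *Nos2*, the *Gch1* levels outside the macrophages were spread out, from 5.94% of the cluster 6 level in cluster 3 to 14.4% in cluster 0 and 30.5% in cluster 4 of the LPS library. After thinning, 40.0% (34.3 to 45.9) of LPS macrophages had a *Gch1* UMI against 6.41% (3.84 to 9.94) of control macrophages. The shares were 14.4% and 15.8% in clusters 4 and 5 of the LPS library and 6.34% (5.78 to 6.93) in cluster 0, where 0.258% of control cells had one. Without thinning 69.8% of LPS and 22.1% of control macrophages had a UMI. By cell type, endothelial cells held 39.1% of the *Gch1* UMIs in control and 19.8% with LPS, and fibroblasts 32.5% and 60.2%.

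**Figure D3:**
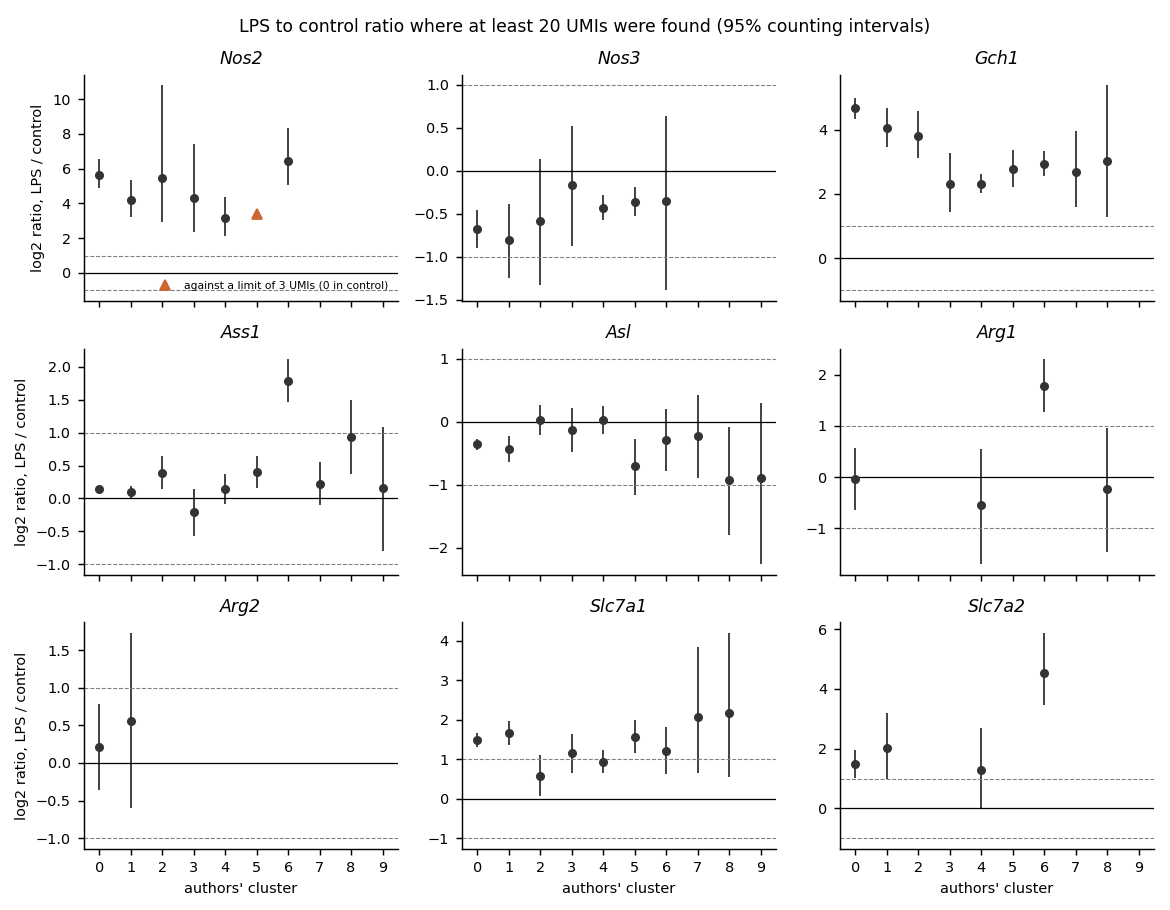
Ratio of the LPS to the control level (y axis, log2) of each gene in each cluster (x axis) with at least 20 UMIs over both libraries, with exact 95% counting intervals; the solid line is no difference and the dashed lines are 2-fold. Every Gch1 and Nos2 point lies above the upper dashed line and every Nos3 point lies between the solid line and the lower one. No Nos2 point reached 20 UMIs in the control library alone. The triangle is Nos2 in cluster 5, where the control library had 0 UMIs, read against a limit of 3 UMIs; the exact interval of that ratio starts at 7.90.

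*Ass1* (ENSRNOG00000008837), the enzyme that limits the return of citrulline to arginine, was at least 2-fold higher with LPS in macrophages and in no other of its 10 measured clusters. In cluster 6 it went from 107 to 295 UMIs (34.4 to 119 CPM), a ratio of 3.45 (2.76 to 4.35), and from 7.12% (4.40 to 10.8) to 24.8% (19.96 to 30.2) of thinned cells. The macrophage level in the LPS library did not differ beyond counting error from that of clusters 0 and 7. In cluster 0, where *Ass1* is among the 10 leading genes, the levels were 118 and 131 CPM (1.10, 1.07 to 1.13), and fibroblasts held 91.5% and 88.5% of its UMIs. The next ratios were 1.90 (1.30 to 2.81) in cluster 8, 1.32 (1.11 to 1.56) in cluster 5 and 1.31 (1.10 to 1.57) in cluster 2, the last of which turned to a log2 ratio of -0.084 without the 8% of cells with the most UMIs. Among macrophages the *Ass1* UMIs were unevenly spread, with 54.2% of them in the 30 of 291 LPS cells that had the most and 77.6% in the 29 of 281 control cells that had the most, and at most 10 in a cell. In control, *Ass1* was at 23.9 to 34.4 CPM in clusters 2, 3, 4 and 6. There the 6 fibroblast markers summed to 26.6% to 42.3% of their cluster 0 level. The part of free fibroblast RNA in these *Ass1* levels was not tested.

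*Asl* (ENSRNOG00000000903), which completes the return to arginine, did not follow *Ass1*. In macrophages it had 28.9 and 23.7 CPM (0.821, 0.581 to 1.15). It was lower with LPS in cluster 0 (0.781, 0.737 to 0.828), cluster 1 (0.744, 0.644 to 0.857), cluster 5 (0.611, 0.448 to 0.830) and cluster 8 (0.529, 0.288 to 0.941), and at 1.02 in clusters 2 and 4. No cluster reached a 2-fold difference. In LPS cells the level was highest in cluster 4 (34.4 CPM, 30.8 to 38.3) and cluster 2 (32.5 CPM, 28.8 to 36.6) and lowest in clusters 5 (15.8 CPM, 12.4 to 19.9) and 1 (15.8 CPM, 14.1 to 17.6), with intervals that do not overlap between these pairs of clusters. Neighbours in the order did not differ beyond counting error in either library.

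*Arg1* (ENSRNOG00000013304), the cytosolic arginase, was at its highest level in macrophages in the LPS library, where they held 58.5% of its UMIs. In control cells they held 29.7%, against 43.9% in fibroblasts, and cluster 8 did not differ from the macrophages beyond counting error. In cluster 6 it went from 44 to 121 UMIs (14.1 to 48.7 CPM), a ratio of 3.45 (2.42 to 4.98). The number of macrophages with an *Arg1* UMI went from 26 of 281 (9.25%) to 38 of 291 (13.1%), against 0.773% and 0.612% in cluster 0, and the 30 LPS macrophages with the most held 93.4% of the UMIs, up to 17 in a cell. After thinning the macrophage shares were 3.91% (1.97 to 6.90) and 8.62% (5.66 to 12.5), which overlap. Cluster 8, which has no name, was second with 13.5 CPM in control and 11.4 CPM in LPS cells (0.847, 0.362 to 1.94). The other clusters were at 1.80 CPM or less, and in cluster 0 the LPS level was 1.20% of that in macrophages. The 10 leading genes of cluster 8 include *Upk1b* and *Msln*, from a list of 6 mesothelial markers. That list summed to 575 CPM in control and 593 CPM in LPS cells of cluster 8. In clusters 0 to 7 and 9 it summed to 6.03 to 30.8 CPM. *Krt19* of the list was at 0 in cluster 8 in both libraries, and *Lrrn4* in LPS cells. *Arg2* (ENSRNOG00000053811), the mitochondrial arginase, was scarce everywhere, with 89 control and 76 LPS UMIs, and was measured in clusters 0 (1.16, 0.779 to 1.73) and 1 (1.47, 0.662 to 3.32) alone.

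**Figure D4:**
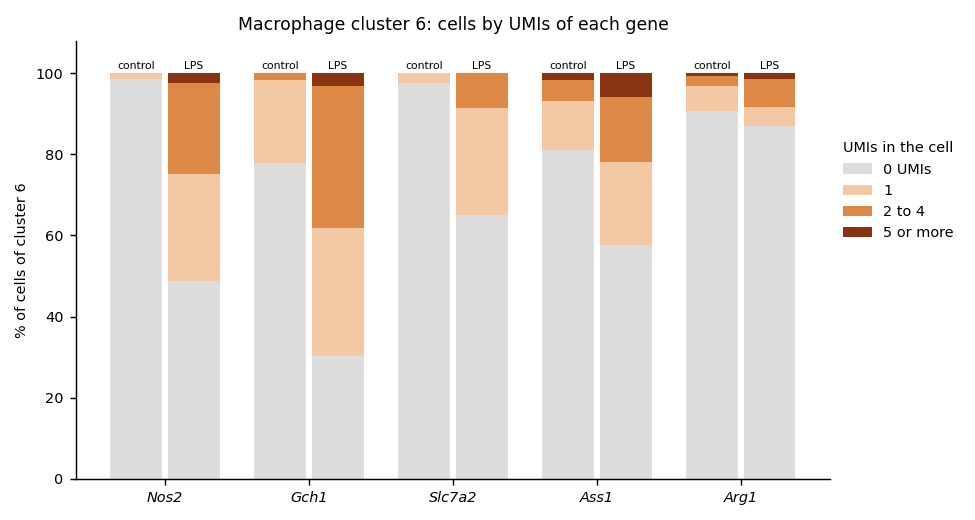
Percentage of the cells of macrophage cluster 6 (y axis) with 0, 1, 2 to 4, or 5 or more UMIs of 5 genes, without thinning, in the control (281 cells) and LPS (291 cells) library. With LPS, 69.8% of the cells had a Gch1 UMI and 51.2% a Nos2 UMI, whereas 13.1% had an Arg1 UMI.

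*Slc7a1* (ENSRNOG00000000924) was higher with LPS in all 9 measured clusters, at least 2-fold in 7 of them, with 896 and 1967 UMIs in all (2.63, 2.43 to 2.85). In the LPS library it was highest in the endothelial cluster 5, which went from 15.8 to 46.6 CPM (2.95, 2.24 to 3.95) and was then at 1.65 times the macrophage level of 28.2 CPM, with an interval that starts at 1.26. In control, cluster 5 did not differ from cluster 4 beyond counting error (1.11, 0.82 to 1.49). The ratio was 2.78 (2.46 to 3.14) in cluster 0, 3.15 (2.56 to 3.91) in cluster 1, 2.21 (1.58 to 3.14) in cluster 3 and 2.31 (1.53 to 3.52) in macrophages. It was below 2 in cluster 4 (1.92, 1.57 to 2.35) and cluster 2 (log2 ratio 0.59, from 5.87 to 8.81 CPM). Clusters 7 and 8, with 22 and 17 UMIs in LPS cells, gave 4.23 (1.56 to 14.3) and 4.50 (1.47 to 18.4). Their control counts were 5 and 4 UMIs, so they met the minimum through their LPS UMIs.

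*Slc7a2* (ENSRNOG00000011016), by contrast, was highest in macrophages of the LPS library. In cluster 6 it went from 7 to 130 UMIs (2.25 to 52.3 CPM), a ratio of 23.3 (10.98 to 59.0), and 0.712% and 16.2% (12.2 to 21.0) of thinned macrophages had a UMI, against 0.197% and 0.598% in cluster 0. Unthinned, these shares were 2.49% and 35.1% in macrophages and 0.848% and 1.72% in cluster 0. No other cluster of the LPS library exceeded 3.58 CPM. It was also higher in clusters 0 (0.619 to 1.72 CPM, 2.78, 2.02 to 3.88) and 1 (4.05, 1.96 to 9.20), with LPS levels at 3.29% and 3.23% of the macrophage level, beside 0.609% and 0.540% for the sum of macrophage markers. The part of free macrophage RNA in these low values was not tested. In cluster 4 the ratio was 2.43, with an interval (0.993 to 6.502) that includes 1. Clusters 1, 4 and 6 had 10, 8 and 7 control UMIs of *Slc7a2*, so they met the minimum through their LPS UMIs.

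Whether the genes are found in the same macrophages could be read at low depth only, and no association was detectable. Of 290 thinned cells, 76 had a *Nos2* UMI and 214 had none. *Gch1* was found in 36.8% (26.1 to 48.7) of the former and 41.1% (34.5 to 48.0) of the latter, *Ass1* in 23.7% (14.7 to 34.8) and 25.2% (19.6 to 31.6), *Slc7a2* in 14.5% (7.45 to 24.4) and 16.8% (12.1 to 22.5) and *Arg1* in 6.58% (2.17 to 14.7) and 9.35% (5.80 to 14.1). These intervals overlap for every gene. In cluster 0, *Gch1* was found in 6.45% (3.14 to 11.5) of the 155 cells with a *Nos2* UMI and in 6.33% (5.77 to 6.93) of the 6869 without. In cluster 4, *Slc7a2* was found in 4 of the 115 LPS cells with a *Gch1* UMI (3.48%, 0.956 to 8.67) and in 1 of the 681 without (0.147%, 0.00372 to 0.815), intervals that do not overlap. *Nos2* and *Gch1* were each compared with all other members in clusters 0, 4, 5 and 6 of the LPS library. This pair was picked from those many comparisons for its intervals and rests on few cells, so it is no evidence of an association.

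As a description of pattern, the levels of each gene with at least 500 UMIs were correlated with those of 9896 genes over 20 classes, the 10 clusters in each library (Pearson's r of log2(CPM + 1)). The classes of a library share its depth and its free RNA, so no p is given. *Nos2* was most like *Csf3* (r = 0.946), *Ccl4* (0.942) and *Il1b* (0.937), which all encode secreted inflammatory signals. *Gch1* was most like *Arl5c* (0.929), *Nfkbiz* (0.916) and *Adprm* (0.915), and *Slc7a1* like *Btg1* (0.908), *Ptpn12* (0.880) and LOC100909712 (0.875). *Nos3* was most like *Egfl7* (0.983), an endothelial gene, RGD1310587 (0.981) and *Fam167b* (0.977). *Ass1* (0.763 with *Nov*, 0.758 with *Clmp*) and *Asl* (0.772 with *Naglu*, 0.757 with LOC103690108, 0.748 with *Nosip*) had no partner above 0.8.

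Among 43 other listed genes of the same pathways, the LPS level was at least 2-fold higher in 1 pair of gene and cluster. This was *Nostrin* in cluster 5, 1 of 27 measured genes, against 4.86% of all genes there. Over all genes and the 10 clusters, 3.72% of pairs were higher. The LPS level was at least 2-fold lower in 0 to 6 genes of a cluster. *Nostrin*, which encodes a protein that binds the endothelial synthase, had 31.1 and 62.6 CPM there (2.02, 1.63 to 2.50). In cluster 6, 6 of 25 measured genes were at least 2-fold lower, against 16.2% of all genes of that cluster, and in cluster 0, 6 of 36, against 11.5%. The median log2 ratio of the list was -0.51 in cluster 6 and -0.15 in cluster 0, against -0.35 and -0.15 over all genes. The count was 5 of 31 in cluster 4 (6.60% of all genes), 4 of 27 in cluster 5 (6.74%), 4 of 34 in cluster 1 (7.58%) and 4 of 30 in cluster 2 (7.07%). In clusters 3 and 8 it was 0 of 28 (3.29%) and 0 of 20 (4.38%), and in clusters 7 and 9 it was 1 of 19 (6.79%) and 1 of 14 (5.41%). Among the genes at least 2-fold lower were *Aldh18a1* and *Pycr1* in cluster 0 and *Pycr1* in cluster 2. So were *Cav3* and *Oaz2* in cluster 4 and *Cav1* in cluster 9.

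None of the 7 other genes of biopterin synthesis, regulation and recycling was at least 2-fold higher in a measured cluster. Over all genes and clusters, 3.72% of pairs were. *Spr*, sepiapterin reductase, which makes the last step to tetrahydrobiopterin, went from 27.0 to 6.44 CPM in macrophages (0.239, 0.130 to 0.411). There 16.2% of all genes were at least 2-fold lower. *Gchfr*, the feedback regulator of GTP cyclohydrolase, went from 29.4 to 10.1 CPM in cluster 5 (0.344, 0.240 to 0.485) and had a ratio of 0.434 (0.289 to 0.641) in cluster 2. Both enzymes of creatine synthesis, which also consumes arginine, had lower levels in some clusters. *Gamt* was at least 2-fold lower in 7 clusters, with 50.1 and 19.0 CPM in cluster 0 (0.380, 0.357 to 0.403) and 39.5 and 10.9 CPM in macrophages (0.275, 0.174 to 0.420), and *Gatm* was lower in cluster 5 (51.3 and 16.9 CPM) and cluster 6 (0.383, 0.226 to 0.624).

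The subunit genes of soluble guanylate cyclase, the receptor of nitric oxide, were at least 2-fold lower in some clusters, *Gucy1a1* in clusters 0, 1, 2, 4, 5 and 6 and *Gucy1b1* in clusters 0, 1 and 4. Of all genes, 6.60% to 16.2% were at least 2-fold lower in these clusters. *Gucy1a1* was highest in cluster 2, where it is a leading gene beside *Rgs5* and *Kcnj8*, at 106 CPM in control and 51.4 CPM in LPS cells (0.485, 0.432 to 0.544). Its ratio was 0.314 (0.264 to 0.371) in cluster 0 and 0.362 (0.268 to 0.483) in cluster 4. *Gucy1b1* had ratios of 0.332 (0.277 to 0.395) in cluster 0, 0.439 (0.332 to 0.576) in cluster 1 and 0.359 (0.233 to 0.538) in cluster 4. In cluster 2, where its level was highest, the ratio was 0.531 (0.471 to 0.598). In cluster 3 the ratios were 0.734 (0.508 to 1.05) for *Gucy1a1* and 0.655 (0.426 to 0.991) for *Gucy1b1*, and neither gene was measured in clusters 7, 8 and 9. The part of free RNA from cluster 2 in the levels of both genes elsewhere was not tested. In macrophages the arginine exporter subunit *Slc7a7* had 30 and 6 UMIs (0.251, 0.0853 to 0.612). *Ddah2*, listed here among the partners and regulators of nitric oxide synthases, had 51.0 and 24.5 CPM in macrophages (0.481, 0.352 to 0.650). The median log2 ratio over all genes of that cluster was -0.35, so relative to it *Ddah2* was less than 2-fold lower.

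**Figure D5:**
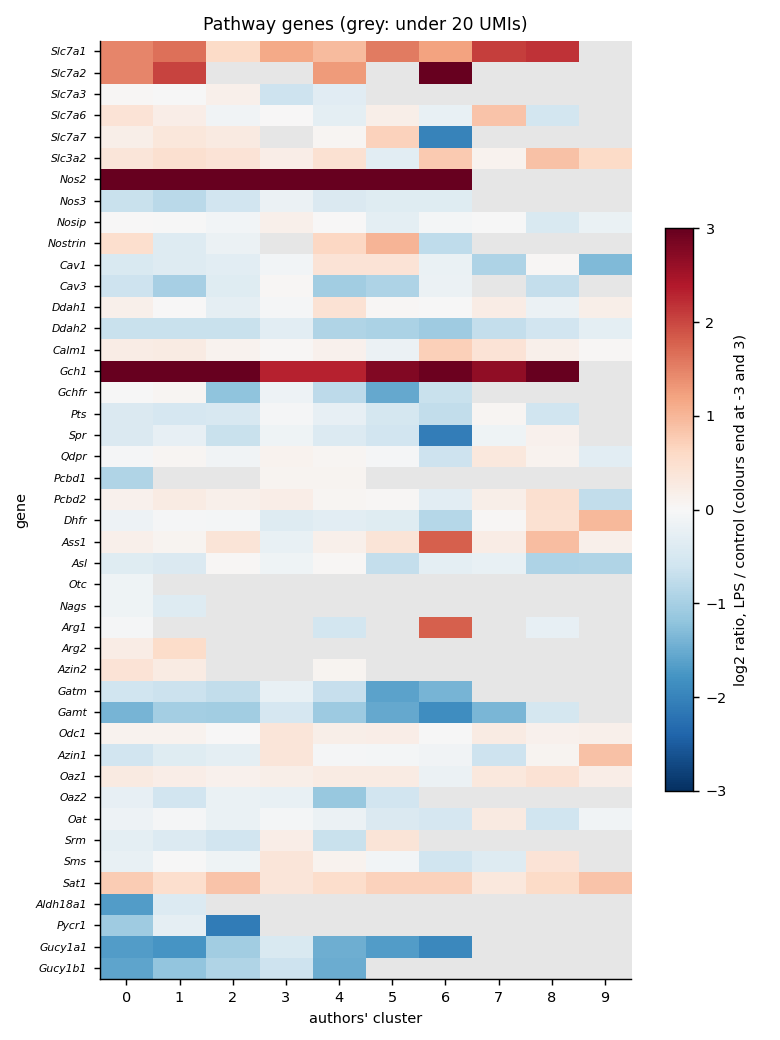
Log2 ratio of the LPS to the control level (colour, red higher with LPS, blue lower, ends at -3 and 3) for the pathway genes (y axis; without the biopterin-dependent hydroxylases) with at least 20 UMIs in a cluster (x axis), grey where fewer. Rows of Nos2 and Gch1 are red throughout the measured clusters, and Gamt and Gucy1a1 are blue.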

How the data were processed

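Single-cell RNA-seq was made from 2 samples, 1 control and 1 LPS, whose groups come from their labels. The deposited values are raw UMI counts per gene and cell, without normalization by the authors, with the authors' cluster and cell type name of each cell. Per the labels and the methods, libraries were made with the 10X Genomics 3′ v2 kit, the submitters' processing notes name Cell Ranger 2.2.0 and Seurat 2.3.4, and clusters come from Seurat after canonical correlation analysis of both libraries. The genome build and annotation behind the counts are not given in the sources used here.

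Counts were summed per cluster and library in Python 3.11.15 (numpy 2.4.6, scipy 1.17.1, pandas 2.3.3; plots with matplotlib 3.10.9) and divided by the total UMIs of the class. Over all cells the control library held 152624585 UMIs and the LPS library 127580475. No cell was removed, doublets were not called, and the 2 control and 8 LPS cells without a cluster (1 UMI of the 9 genes) were left out. A gene was taken as measured in a cluster with at least 50 cells per library and 20 UMIs over both libraries. Intervals are exact Poisson (levels), exact conditional (ratios) and Clopper-Pearson (shares) at 95% and cover counting error only. A limit of 3 UMIs took the place of 0 only in fold calls and log2 ratios, not in the intervals. Thinning drew 3000 UMIs per cell without replacement, with seed 1. The procedure was tested on simulated Poisson counts, where 96.0% of intervals in cluster 6 and 95.6% in cluster 0 held the true ratio. Clumping of UMIs in single cells was not simulated, so the intervals are not tested for it. Promoter windows and motifs come from the RefSeq table.

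The genes, marker lists and pathway list were chosen with earlier results of these data known, so none of them is independent of the data. All 9 genes are reported in every cluster, pathway genes are named where they differ by at least 2-fold, and likeness is given for the 3 genes with the highest correlation. A pathway gene and a likeness gene that these rules would name are not reported here. Of the pathway list, Hsp90aa1, Tph2 and Cps1 are listed at 0 in both libraries. The motifs and the windows shown were chosen after the data were seen. Alternatives were scaling, the mean of the cells' own CPM, filters on cells, removal of cells with the most UMIs or with macrophage UMIs, thinning, joined cell types, other minimums and other fold thresholds.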

Additional observations from a re-analysis of the deposited data

How the results depend on the processing

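Of 434 alternative values for the 62 log2 ratios, 409 lay within the main interval and 24 moved outside it. The remaining 1 lay outside an interval that excludes no difference and had the opposite sign. It was *Ass1* in cluster 2, whose log2 ratio was -0.084 without the 8% of cells with the most UMIs, against 0.39. Changes of sign within the main interval were not counted. Of the 24, 15 came from thinning to 3000 UMIs, which leaves fewer UMIs. Many of the 434 values equal the main value by construction. The filter on genes and mitochondrial UMIs removed no cell in clusters 0, 1, 2, 5, 7 and 8. Joining cell types left clusters 2, 3, 6, 8 and 9 as they were, and removing cells with macrophage marker UMIs left cluster 6 as it was. For the 29 pairs at least 2-fold higher with LPS, all 203 alternative values were above 0 and 199 were at least 1 on the log2 scale. These, too, include values that equal the main value by construction. The number of such pairs was 30 with scaling by the median ratio, 27 with the mean of the cells' own CPM, 29 in cells with at least 1000 genes and at most 25% mitochondrial UMIs, 28 without the 8% of cells with the most UMIs, 31 without cells outside cluster 6 that held 2 or more macrophage marker UMIs, 21 after thinning, 20 with clusters of a cell type joined, 33 with no minimum, 21 with a minimum of 50 UMIs, and 32 and 23 at thresholds of 1.5-fold and 3-fold. Pairs at least 2-fold lower, 0 in the main setting, were 1 with the mean of the cells' own CPM, 1 with the filter on genes and mitochondrial UMIs, 1 without the 8% of cells with the most UMIs, 1 without the cells with macrophage marker UMIs, 3 with no minimum and 5 at the 1.5-fold threshold, and 0 otherwise. The 4 single pairs were *Asl* in cluster 9 for the first 3 settings and in cluster 8 for the last, and the cause was not tested. The settings differ in how many pairs they count, so these counts do not compare directly with 29. Thinning and the minimum of 50 UMIs leave fewer pairs. With joined cell types, clusters 1, 5 and 7 are not counted on their own. The share of all genes is not given for these settings. The setting with no minimum still left out pairs with at most 3 UMIs in each library. *Slc7a1* in cluster 6 was at 0.93 (log2) with the mean of the cells' own CPM and *Slc7a2* in cluster 4 at 0.81. Shares of cells depend on depth by construction, and 176 of 194 alternative values at other depths lay outside the main interval. No paired analysis was possible because both groups consist of a single library, and no replicate could be left out. Genes with few UMIs, such as *Arg2*, are limited by depth in most clusters.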
